A study of Mus musculus with 4 samples.

Results

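The genes described here are the receptors through which cultured dendritic cells (DCs) sense colony-stimulating factors, the alpha chain of the interleukin 2 receptor, and 4 SOCS genes that damp cytokine signalling. Members were all probe sets annotated to exactly 1 of 10 symbols: Csf2ra, Csf2rb, Csf2rb2, Csf1r, Csf3r, Il2ra, Cish, Socs1, Socs2 and Socs3. All 10 genes were found, with 22 probe sets, among 18193 genes and 34945 singly named probe sets in all. The cells were mouse bone marrow cells of strain C57/BL6, grown for 6 to 7 days with GM-CSF at 20 ng/mL and enriched on beads for CD11c, an integrin of DCs. Donor mice were wild-type (WT) or LXR-DKO, the latter deficient in LXRα and LXRβ together, the liver X receptors, which are nuclear receptors that sense oxysterols. Each genotype was then kept for 24 h with GM-CSF at 10 ng/mL alone (control), or with the same GM-CSF and lipopolysaccharide (LPS), which activates Toll-like receptor 4, at 100 ng/mL. There was 1 array for each of the 4 groups, and GM-CSF was present in all of them. How the receptors were deleted and how many mice gave cells to a culture is not given in the labels. The differences below thus rest on single arrays without replicates or tests, and an array that stands apart for another reason cannot be told apart from an effect of its group.

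The GM-CSF receptor pairs a ligand-binding alpha chain with a signalling beta chain that it shares with the receptors for interleukin 3 and interleukin 5. The beta chain carries the kinase JAK2, which activates the transcription factor STAT5, and STAT5 in turn switches on Cish and Socs2. SOCS proteins bind phosphorylated receptors or kinases and attach them to a ubiquitin ligase, so that they form a feedback loop. In marrow cultures GM-CSF drives the growth and survival of DCs, while the M-CSF and G-CSF receptors are best known from macrophages and granulocytes.

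Signals are MAS5 intensities in arbitrary units, which can be compared between arrays for 1 probe set but not between probe sets. The median of all signals, 28.9, was used as a floor: a lower signal was set to it in a ratio, which is then a lower limit on the size. The arrays had the same trimmed mean of 200.0 and medians of 25.9 to 32.9. As a yardstick, the standard deviation (SD) of the log2 ratios of probe sets that share a gene was pooled over genes. It was 0.29 for LPS over control in WT and 0.42 in LXR-DKO. This was 0.45 for LXR-DKO over WT without LPS and 0.54 with LPS. This spread measures disagreement between probe sets of a gene on the same arrays, for probe sets at or above the floor on both. It leaves out error that moves all probe sets of a gene together, and that between cultures. A ratio that passes it is thus not shown to be more than such error. Nr1h3, the gene of LXRα, read 108.6 in untreated and 54.5 in LPS-treated WT cells and 40.4 and 27.0 in the LXR-DKO ones, for a probe set whose place relative to the deletion is not known here. Among 12 DC markers, Itgax, the gene of CD11c, had signals between 3848.1 and 6093.0, while Flt3 reached the floor only in LXR-DKO with LPS, at 107.3. Zbtb46, a transcription factor gene of DCs, read 39.4 and 29.0 in WT, near the floor, and 305.9 and 393.3 in LXR-DKO.

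In outline, the brightest probe sets of the GM-CSF and M-CSF receptor genes differed by less than 2-fold over the 4 arrays, Il2ra and Socs2 were far higher in LXR-DKO, and Socs3 was higher with LPS in both genotypes. Csf3r was dim and was lowest in WT with LPS. Without LPS, 2 of the 10 members passed 2-fold upwards in LXR-DKO over WT, against 12.7% of all measured genes, and 1 was at least 2-fold lower, against 9.28%. With LPS, 3 of 10 were higher, against 17.8%, and 0 were lower, against 8.76%. For LPS over control in WT, 1 of 10 was at least 2-fold higher, against 2.93% of measured genes, and 1 lower, against 4.79%. In LXR-DKO, 1 of 10 was higher with LPS, against 6.23%, and 0 were lower, against 1.82%. With so few members these counts lie close to the background, and what follows describes single genes. Counted either way, the members past 2-fold were 2 for LPS in WT, 1 for LPS in LXR-DKO, 3 for genotype without LPS and 3 with LPS, beside 7.72%, 8.06%, 22.0% and 26.6% of measured genes.

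**Figure D1:**
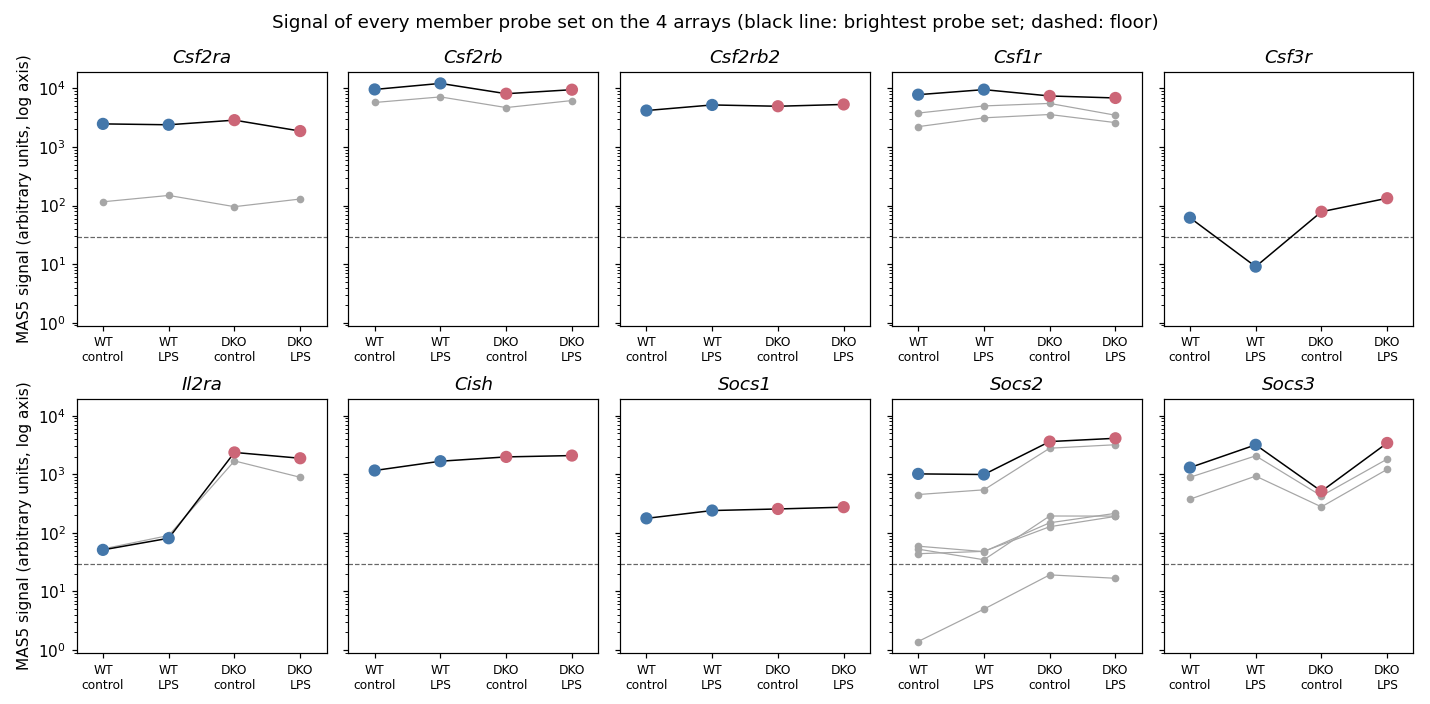
Signal of each member probe set (y axis, arbitrary MAS5 units, log axis) on the 4 arrays (x axis, blue WT, red LXR-DKO, 1 array per group, so no error bars); coloured points joined by a black line are the brightest probe set of the gene, grey ones the others, and the dashed line is the floor of 28.9. Il2ra lies at 51.3 and 81.0 in WT and at 2361.7 and 1878.3 in LXR-DKO, while Csf2rb stays between 8134.6 and 12196.3.

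Sequence near the start of these genes is shown because STAT5 and the NF-kappaB factors that act downstream of LPS bind short motifs there. Promoters of 300 bases, 250 before and 50 after the annotated start, were taken from RefSeq for assembly GRCm38.p6. Of the 10 members, 7 matched this table, and Csf2rb, Csf1r and Socs2 are named only. The palindrome TTCNNNGAA, which STAT proteins bind and which reads the same on both strands, occurred in 3 of the 7, against 8.3% of all 32851 promoters. The windows of 30 bases below hold the matches in capitals, 5′ to 3′ on the strand of the gene, and Cish alone of the 3 had 2 matches. At least 2 were found in 0.457% of all promoters.
Cish: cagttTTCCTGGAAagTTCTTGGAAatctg
Socs3: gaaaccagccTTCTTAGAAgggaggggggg
Csf2rb2: gtgtccacaaTTCTGAGAAgcaagcaaagc

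The Cish window lies on the plus strand at chr9:107296654-107296683, and its matches cover bases 1 to 20 from the annotated start. That of Socs3 lies on the minus strand at chr11:117969501-117969530, with the match at bases -154 to -146, and that of Csf2rb2 on the minus strand at chr15:78305717-78305746, with the match at bases -15 to -7. The NF-kappaB consensus, searched on both strands by its usual degenerate form, occurred in 2 of the 7 promoters, against 8.5% of all. Its matches are in capitals below, and those of Il2ra are 2 matches that overlap.
Il2ra: gccgcggcaGGGAATCCCCCtttccttgta
Csf3r: ccctgaggcaGGAAGGTCCCtagctcacca

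The Il2ra window is at chr2:11642582-11642611 on the plus strand, with the matches at bases -201 to -191, and the Csf3r window at chr4:126024520-126024549 on the plus strand, with the match at bases -129 to -120. These are letters in a sequence, and binding was not measured.

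The GM-CSF receptor alpha chain gene Csf2ra, which encodes the chain that binds GM-CSF, had 2 probe sets. The brighter gave 2485.0 in WT control, 2399.9 in WT with LPS, 2878.0 in untreated LXR-DKO and 1874.8 in LPS-treated LXR-DKO cells. Its lowest array was thus LXR-DKO with LPS, and the log2 ratio of LPS over control was -0.62 in LXR-DKO and -0.05 in WT. The dimmer probe set gave 116.3, 149.3, 96.0 and 129.7 in the same order and stood at 0.36 in WT and at 0.43 in LXR-DKO for LPS, log2 scale. Its probe sets therefore pointed opposite ways for LPS in LXR-DKO, and no direction is given for this gene. Genotype ratios ranged from -0.36 to 0.21 over both probe sets and both conditions.

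Csf2rb encodes the common beta chain, which gives the GM-CSF receptor its signalling part. Its brighter probe set read 9621.5 in WT control, 12196.3 in WT with LPS, 8134.6 in untreated LXR-DKO and 9523.2 in LPS-treated LXR-DKO cells. The other read 5762.4, 7173.4, 4718.6 and 6218.4. Both gave higher values with LPS in each genotype, with log2 ratios of 0.32 and 0.34 in WT and of 0.40 and 0.23 in LXR-DKO, and lower values in LXR-DKO than in WT, with ratios between -0.36 and -0.21. The WT ratios just passed the probe-set SD of 0.29 and the others stayed below theirs.

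Csf2rb2 is a copy of that gene found in mice, whose product serves the interleukin 3 receptor, and in the RefSeq gene table it is the neighbour of Csf2rb. Signals were 4198.4 in WT control, 5232.2 in WT with LPS, 4970.8 in untreated LXR-DKO and 5334.7 in LPS-treated LXR-DKO cells. The highest was 1.27-fold above the lowest, the smallest range of any member. A further probe set annotated to both Csf2rb and Csf2rb2, and so not a member, read 2175.3, 2518.6, 2823.0 and 2713.2. Because the genes are near copies, part of the signal of either may come from the other.

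Csf1r, the receptor tyrosine kinase for M-CSF and interleukin 34, had 3 probe sets. The brightest read 7831.1 in WT control, 9551.4 in WT with LPS, 7445.8 in untreated LXR-DKO and 6885.7 in LPS-treated LXR-DKO cells. The next read 3802.1, 5033.5, 5553.9 and 3494.7, and the third 2229.0, 3152.3, 3593.4 and 2612.3. All 3 were higher with LPS in WT, at log2 ratios of 0.29, 0.40 and 0.50, and lower with LPS in LXR-DKO, at -0.11, -0.67 and -0.46. Without LPS, the genotype ratio was -0.07 for the brightest and 0.55 and 0.69 for the others, so its direction depends on the probe set. With LPS all 3 were lower in LXR-DKO, between -0.53 and -0.27, within the probe-set SD of 0.54. The LXR-DKO response minus the WT response, on the log2 scale, was -0.40 for the brightest and -1.07 and -0.96 for the others.

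Beside Csf1r, macrophage and monocyte markers went both ways between the genotypes. Of 8 measured markers, 4 passed 2-fold upwards and 1 downwards in LXR-DKO without LPS, and likewise with LPS. Over all measured genes 12.7% and 17.8% passed upwards and 9.28% and 8.76% downwards. The summed signal was 15179.4 in WT control, 27127.9 in WT with LPS, 32263.0 in untreated LXR-DKO and 28114.3 in LPS-treated LXR-DKO cells. A few bright probe sets lead these sums, so they are no measure of cell number. Cd14 went from 2727.4 to 10288.6 with LPS in WT, where the median log2 LPS ratio of the list was -0.27. In untreated LXR-DKO cells C1qa, C1qb and C1qc read 5335.4, 6280.6 and 5386.1, while Cd68 was lower than in WT at -1.31, log2 scale. In bulk RNA, fewer cells of a type and less RNA per cell cannot be told apart. The part of such cells in the Csf1r values was not tested.

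By their brightest probe sets these 4 receptor genes had narrow ranges over the arrays. Neighbours in the order from low to high lay within the largest probe-set SD of 0.54 for each of them, which does not show that the outermost arrays were alike: the LPS ratio of Csf2ra in LXR-DKO, -0.62, passed that comparison's spread of 0.42, as did the ratios of the other Csf1r probe sets, -0.67 and -0.46. The highest array over the lowest was 1.54-fold for Csf2ra, 1.50-fold for Csf2rb and 1.39-fold for the brightest Csf1r probe set.

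Csf3r, the G-CSF receptor of neutrophils and their precursors, was the dim exception among the receptors. Its only probe set read 62.2 in WT control, 9.1 in WT with LPS, 78.7 in untreated LXR-DKO and 133.8 in LPS-treated LXR-DKO cells. The WT LPS value lay below the floor. With LPS, Csf3r was thus at least 2.15-fold lower in WT, a log2 ratio of -1.11, and 1.70-fold higher in LXR-DKO, a log2 ratio of 0.77. The LXR-DKO over WT difference was 1.27-fold without LPS and at least 4.63-fold with LPS. The difference of the responses, 1.87 at the least, ranked 166 from the top among 10764 genes, of which 9.68% differed by at least 1 either way. It rests on 1 dim reading on 1 array.

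Neutrophil and precursor markers were higher in LXR-DKO in both conditions. Csf3r passed 2-fold only with LPS, where its WT reading of 9.1 was below the floor. Of 10 markers 7 were on the array. In LXR-DKO 6 of 7 passed 2-fold upwards without LPS and 7 of 7 with LPS, against 12.7% and 17.8% of all measured genes. Their summed signal was 1858.2 in untreated and 1964.5 in LPS-treated WT cells, against 17455.1 and 16643.6 in LXR-DKO. Ngp, a granule protein gene, was below the floor on both WT arrays, and most of the WT sum was S100a8 at 1594.3 and 1817.2. The part of such cells in the Csf3r values was not tested.

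Il2ra encodes CD25, the chain that raises the affinity of the interleukin 2 receptor and is known from activated T cells, regulatory T cells, precursor B cells and mature DCs. It had 2 probe sets. The brighter read 51.3 in WT control, 81.0 in WT with LPS, 2361.7 in untreated LXR-DKO and 1878.3 in LPS-treated LXR-DKO cells, and the other 53.2, 90.3, 1692.7 and 889.2. Both LXR-DKO arrays stood far above both WT arrays in each probe set. LXR-DKO over WT was 46.0-fold and 31.8-fold without LPS and 23.2-fold and 9.85-fold with LPS. By the brighter probe set the ratio ranked 14 among 11728 genes without LPS and 49 among 12014 with LPS.

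The response of Il2ra to LPS had opposite signs in the genotypes. In WT it was higher with LPS by log2 ratios of 0.66 and 0.76 in the probe sets, above the spread of 0.29. In LXR-DKO it was lower with LPS by -0.33 and -0.93, of which only the latter passed the spread of 0.42. The WT readings, between 51.3 and 90.3, were close to the floor of 28.9.

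Most T cell markers were at or near the floor, with 1 of the 3 probe sets of Zap70 as the exception. The summed B cell and DC markers were higher in LXR-DKO, as Il2ra was. Of 11 T cell markers 10 were on the array, and Cd3e, Foxp3 and Trat1 were below the floor on all 4. That Zap70 probe set, the only one measured in any comparison, read 87.0 and 120.9 in WT without and under LPS. It read 233.2 in untreated LXR-DKO and 23.4 in LPS-treated LXR-DKO cells. Summed B cell markers were 311.6 in untreated and 217.7 in LPS-treated WT cells, against 3476.1 and 6021.3 in LXR-DKO, the latter mostly from Ighm, and Vpreb1 of precursor B cells was below the floor on all arrays. Summed DC markers were 23025.7 and 21425.3 in WT and 44152.4 and 57322.7 in LXR-DKO, although Itgax was lower there at log2 ratios of -0.19 and -0.66. Between the LXR-DKO arrays both sums were higher with LPS and Il2ra was lower, but single markers went both ways. With LPS there, 5 of 12 DC and 4 of 7 B cell markers passed 2-fold upwards, against 6.23% of all measured genes. Ccr7, Cd83 and Fscn1 were among them, whereas Itgax, H2-Ab1, H2-Aa, Cd74 and Pax5 were lower by less than 2-fold. In LXR-DKO over WT, 7 of 11 DC and 4 of 6 B cell markers passed 2-fold upwards without LPS. With LPS these were 9 of 12 and 5 of 7, beside shares of 12.7% and 17.8%. The part of B cells or of more mature DCs in the Il2ra values was not tested.

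**Figure D2:**
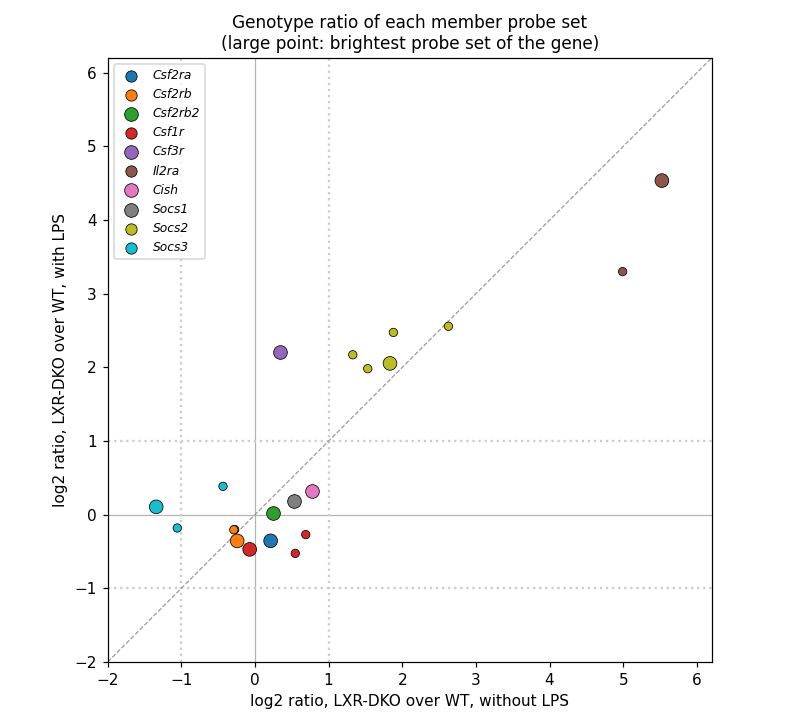
Log2 ratio of LXR-DKO over WT without LPS (x axis) and with LPS (y axis) for each member probe set that reached the floor somewhere, 1 array per group; large points are the brightest probe set of a gene, dotted lines mark 2-fold and the dashed line equal ratios. Il2ra at 5.52 and 4.54 and the 5 measured Socs2 probe sets stand apart at the upper right, and Csf3r lies above the line at 0.34 and 2.21.

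Il2rb and Il2, the partner chain and the ligand measured for the interleukin 2 receptor, were dim. Il2rb, the beta chain, read 27.1 and 24.2 in WT and 45.0 and 38.4 in LXR-DKO. Il2rg, the common gamma chain, was not analysed here, and Il2 was below the floor on all 4 arrays, with 21.0 in WT with LPS as its highest reading. Il3ra and Il5ra, the alpha chains that share the common beta chain, were measured without a 2-fold difference: Il3ra stayed between 76.7 and 96.0, and Il5ra reached the floor only in LXR-DKO with LPS, at 32.7.

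Of the SOCS genes, Cish, the first described inhibitor of the family and a STAT5 target, read 1161.0 in WT control, 1672.6 in WT with LPS, 1981.2 in untreated LXR-DKO and 2088.2 in LPS-treated LXR-DKO cells. WT control was its lowest array. The log2 ratio of LPS over control was 0.53 in WT, above the spread of 0.29, and 0.08 in LXR-DKO. The genotype ratio, LXR-DKO over WT, stood at 0.77 without LPS, above the spread of 0.45, and 0.32 with LPS, below 0.54.

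Socs1, which blocks JAK kinases directly and restrains interferon signalling, had the same order of arrays. Its probe set read 177.0, 240.7, 256.0 and 274.7 in WT control, WT with LPS, LXR-DKO control and LXR-DKO with LPS. On the log2 scale, LPS over control was 0.44 for WT and 0.10 for LXR-DKO, and the genotype ratio was 0.53 without and 0.19 with LPS, the last below 0 with scaling to a common 75th percentile or quantile normalization. Cish and Socs1 were the closest pair among the members in their profile over the 4 arrays, with a root mean square difference of 0.097 between centred log2 signals. As 4 arrays give little to compare, this is a description.

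Socs2, a STAT5 target that restrains growth hormone signalling, was the second gene far higher in LXR-DKO. Its brightest probe set read 1016.1 in WT control, 991.9 in WT with LPS, 3619.5 in untreated LXR-DKO and 4116.6 in LPS-treated LXR-DKO cells. The next brightest read 451.5, 543.2, 2787.9 and 3196.5. Of its 6 probe sets, 5 reached the floor on all 4 arrays and 1 on none, and in each of the 5 both LXR-DKO arrays were above both WT arrays. Their log2 ratios of LXR-DKO over WT ran from 1.33 to 2.63 without LPS and from 1.98 to 2.56 with LPS, so all 5 were at least 2-fold higher in both conditions. For the brightest probe set that is 3.56-fold and 4.15-fold.

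By its brightest probe set, LPS made little difference to Socs2. There log2 of LPS over control was -0.03 for WT and 0.19 for LXR-DKO, both within the spread between probe sets. Over the 5 probe sets the ratios ran from -0.60 to 0.27 in WT, with 2 above 0 and 3 below. They ran from -0.01 to 0.58 in LXR-DKO. Dimmer probe sets passed the spread, at -0.60 and -0.31 in WT and at 0.58 and 0.53 in LXR-DKO. Il2ra and Socs2 were thus the members at least 2-fold higher in LXR-DKO in both conditions, as were 10.3% of the 11264 genes measured in both.

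Socs3, which binds the interleukin 6 and G-CSF receptors and is induced by LPS and by STAT3, was the LPS-responsive member. Its brightest probe set read 1301.4 in WT control, 3184.6 in WT with LPS, 513.3 in untreated LXR-DKO and 3425.3 in LPS-treated LXR-DKO cells. The second read 888.8, 2064.7, 427.6 and 1820.3, and the third 375.8, 931.9, 278.0 and 1215.7. In all 3 probe sets both LPS arrays were above both control arrays, and LXR-DKO control was the lowest. LPS over control was 2.45-fold, 2.32-fold and 2.48-fold in WT and 6.67-fold, 4.26-fold and 4.37-fold in LXR-DKO. At least 2-fold higher values with LPS in both genotypes were found for 1.88% of 10764 genes.

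The larger LPS ratio of Socs3 in LXR-DKO went with a lower control value. LXR-DKO over WT without LPS was -1.34, -1.06 and -0.43 on the log2 scale in the 3 probe sets, the last within the spread of 0.45. With LPS it was 0.11, -0.18 and 0.38, all within 0.54. The difference of the log2 LPS responses was 1.45 for the brightest probe set, which like the second has a suffix for targets shared between transcripts, and 0.82 for the probe set without one. Its side of the 2-fold line therefore depends on the probe set.

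**Figure D3:**
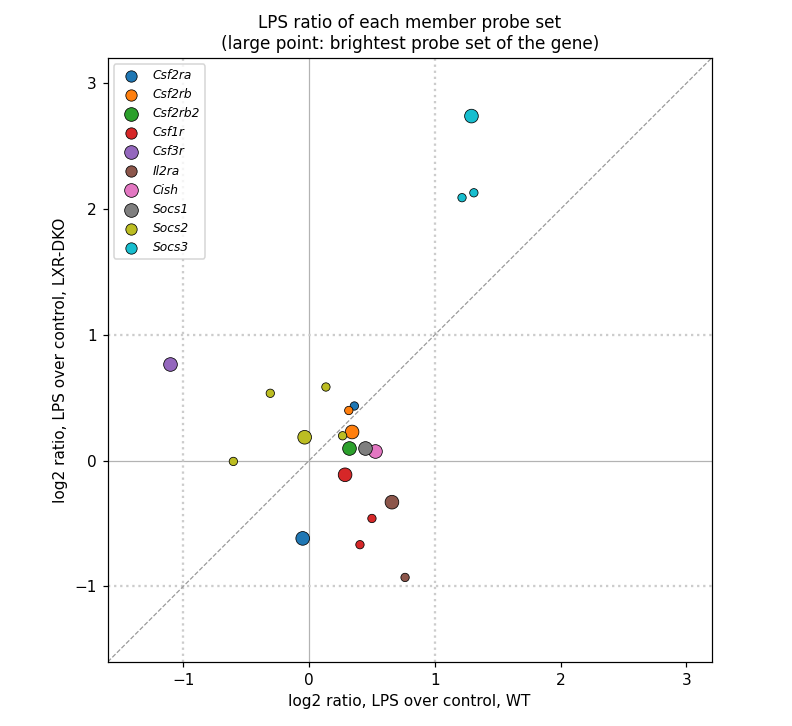
Log2 ratio of LPS over control in WT (x axis) and in LXR-DKO (y axis) for each member probe set that reached the floor somewhere, 1 array per group; large points are the brightest probe set of a gene, dotted lines mark 2-fold and the dashed line equal ratios. The 3 Socs3 probe sets stand alone beyond 2-fold in both genotypes, and Csf3r, Il2ra, Csf1r and some Socs2 probe sets lie in the quadrants where the genotypes have opposite signs.

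Of the other SOCS box and inhibitor genes, 16 were measured, and 1 passed 2-fold upwards and 1 downwards in LXR-DKO without LPS, with a median log2 ratio of 0.33 against 0.05 over all measured genes. With LPS 4 were higher and 0 lower, with a median of 0.54 against 0.15. All measured genes were higher in 12.7% and lower in 9.28% without LPS, and in 17.8% and 8.76% with LPS. Cblb, a ubiquitin ligase that restrains receptor signalling, had a log2 ratio of 2.66 with LPS and 0.22 without, and its 3 probe sets ran from 2.07 to 2.66 with LPS. Ptpn6, a phosphatase that dephosphorylates JAKs and receptors, was at 1.71 with LPS and Pias3, an inhibitor of STAT3, at 1.38, but their other probe sets were at 0.85 and 0.37, below 2-fold. Probe sets of the remaining SOCS genes did not always point the same way. The brightest for Socs4 was at 0.40 and 0.47 without and with LPS, but the other 3 of its 4 probe sets were below 0 in both, down to -1.40 and -2.11. Socs5 was at -0.96 and -0.87 by its brightest probe set and at -0.51 and 0.23 by the other. All 3 probe sets of Socs6 were below 0 in both conditions, with the brightest at -0.65 and -0.57. The 3 measured for Socs7 were above 0, with the brightest at 0.64 and at 1.07.

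The kinases and transcription factors that carry the receptors' signal were higher in LXR-DKO in part. Of 10 Janus kinase and STAT genes measured, 6 were at least 2-fold higher without LPS and 5 with LPS, and 0 were lower in either. Over all measured genes 12.7% and 17.8% were higher, and 9.28% and 8.76% lower. The median log2 ratios of the list were 1.36 and 0.98, against 0.05 and 0.15 over all measured genes. Jak2, the kinase of the GM-CSF receptor, read 630.4 in untreated and 1254.8 in LPS-treated WT cells, against 4232.3 and 5481.9 in LXR-DKO, log2 ratios of 2.75 and 2.13, with its other probe set at 2.89 and 1.96. Jak3, the kinase bound by the common gamma chain, read 45.8 and 58.7 in WT and 206.8 and 319.5 in LXR-DKO.

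Stat4, which serves interleukin 12 signalling, read 18.6 and 40.1 in WT and 186.8 and 1139.4 in LXR-DKO. The log2 ratio was thus at least 2.69 without LPS, and 4.83 with LPS. Stat2, a partner in interferon signalling, was at 2.07 and 1.12, with its other probe set at 1.83 and 0.80, the latter below 2-fold. The brightest Tyk2 probe set was at 1.68 and 1.49, while its other probe set was at -0.55 without LPS. Of 4 Stat3 probe sets, 3 were above 0 and 1 below without LPS. Stat5a and Stat5b, the factors named for GM-CSF, were at 0.34 and 0.27 without LPS and at 0.84 and 0.79 with LPS by their brightest probe sets. The other Stat5a probe set was at 1.26 without LPS and 0.92 with LPS, and that of Stat5b at 0.59 and 0.82. For LPS over control, 1 of the 10 genes was at least 2-fold higher in WT and 2 in LXR-DKO, against 2.93% and 6.23% of measured genes. Among them was Stat5a, at 1.13 in LXR-DKO and 0.63 in WT. The other Stat5a probe set was at 0.12 in LXR-DKO and 0.47 in WT, so this call depends on the probe set. The list's genotype median without LPS was 0.69 when each gene took the median of its probe sets and 0.31 with the floor at the 75th percentile of 177.4.

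**Figure D4:**
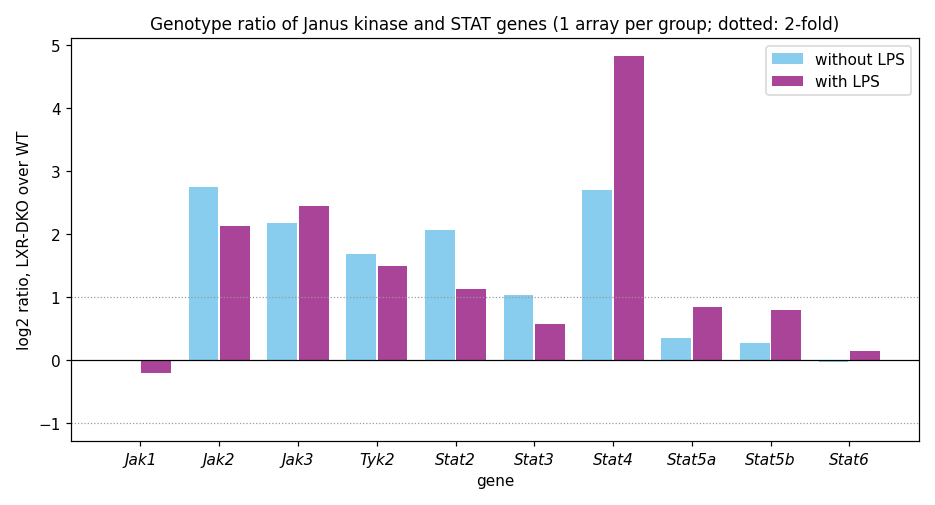
Log2 ratio of LXR-DKO over WT (y axis) for the 10 Janus kinase and STAT genes measured (x axis), without LPS (light blue bars) and with LPS (purple bars), from the brightest probe set and 1 array per group; dotted lines mark 2-fold. Jak2, Jak3 and Stat4 exceed 2 on this scale in both conditions, and Jak1 and Stat6 stay within 0.21 of 0.

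Genes known to respond to STAT5 were also higher in LXR-DKO in part. The list does not separate genes that STAT5 raises from those it lowers, and STAT5 activity was not tested. Of 15 measured, 4 passed 2-fold upwards and 1 downwards in LXR-DKO without LPS, with a median log2 ratio of 0.82. With LPS 7 were higher and 0 lower, with a median of 0.98. Over all measured genes the shares were 12.7% and 17.8% upwards and 9.28% and 8.76% downwards, with medians of 0.05 and 0.15. Cd69, an activation marker, was at 2.21 and 3.61, and Bcl6, a transcriptional repressor, at 1.87 and 2.43. The cyclin D gene Ccnd2 was at 1.66 and 2.83, with all 7 of its probe sets above 0, and Ccnd1 at 0.82 and 2.47. Id1 was lower without LPS at -1.88. The kinase gene Pim1 had probe sets at -0.10 and 1.91 without LPS and at 0.33 and 1.13 with LPS, the brightest being the lower in both. Pim2 was at 0.54 without LPS. The 6 probe sets of Mcl1, a survival gene, ran from -0.05 to 0.36 without LPS.

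The cytokine genes listed for these receptors were mostly dim. The list also holds Il15, whose product has its own alpha chain in place of Il2ra. With LPS 4 of 8 were measured, of which 2, Csf2 and Il15, passed 2-fold upwards and 1, Csf1, downwards in LXR-DKO over WT. Of all measured genes 17.8% were higher and 8.76% lower. Csf1, the gene of M-CSF, read 1247.3 in WT control, 1090.2 in WT with LPS, 209.0 in untreated LXR-DKO and 442.7 in LPS-treated LXR-DKO cells. It was thus lower in LXR-DKO by log2 ratios of -2.58 and -1.30, and all 4 of its probe sets were below 0 in both conditions. Csf2, the gene of GM-CSF, reached the floor only in LXR-DKO with LPS, at 64.3. Csf3, the gene of G-CSF, was higher with LPS in both genotypes, from 23.0 to 216.6 in WT and from 20.0 to 330.1 in LXR-DKO. Il3, Il5 and Il34 were below the floor on all 4 arrays.

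Genes with the profile most like that of a member over the 4 arrays were sought among the 9622 others at or above the floor throughout, for the 3 members with all signals above the floor and a range of at least 1 on the log2 scale. The measure was the root mean square difference of centred log2 signals. Genes with only a provisional name were passed over, so a nearer gene without a settled name may exist. Nearest to Il2ra were Ctse at 0.34, Klk1b11 at 0.51 and Pltp at 0.52. Nearest to Socs2 were Triobp at 0.030, Maz at 0.061 and Tut4 at 0.066. Nearest to Socs3 were Nupr1 at 0.12, Tnfaip3 at 0.13 and Ell2 at 0.18, and Tnfaip3, an inhibitor of NF-kappaB signalling, read 758.2, 2145.7, 324.5 and 1804.7 in the order used above. With 4 arrays a close profile is easily found and says no more than that.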

How the data were processed

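The deposited values are linear MAS5 intensity values for each probe set, per the submitters' processing notes, which give no version or settings. The authors had scaled the arrays to a common brightness, since the mean after leaving out 2% at each end was 200.0 on each. Labelled cRNA was made by an amplification in 2 cycles, per the labels, which can distort levels of dim transcripts. Of 45101 probe sets 64 controls were left out. Of the other 45037, 34945 had 1 gene symbol in the platform annotation, 932 several and 9160 none here, and the gene numbers of all 10 members matched the RefSeq table of GRCm38.p6. A gene was represented by its brightest probe set by mean signal. Genes with at least 1 array of a comparison at or above the floor of 28.9 counted as measured, and an absolute log2 ratio of at least 1 was counted. Python 3.11.15 with pandas 2.3.3 and numpy 2.4.6 was used. Counting was tried on simulated data whose noise had only the size of the probe-set spread. That trial therefore says nothing about error between cultures. Without replicates there are no p-values.

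Members and gene lists were chosen with earlier results of these data known. Named beyond the members were, per list, up to 4 genes at least 2-fold different in the comparison described and those needed to show both directions, the 3 nearest profiles, and Nr1h3. Others given by value (the remaining SOCS genes, kinases, ligands and partner chains, Stat5a and Stat5b, and markers) were picked with their values in view. The alternatives tried were quantile normalization, scaling to the 75th percentile, ratios centred on their median, floors at the 25th percentile of 8.8 and 75th of 177.4, log2 of signals raised by 16 without a floor, the median over probe sets, and only probe sets without a suffix.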

Additional observations from a re-analysis of the deposited data

Results flagged for a closer look

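The LPS response of Csf3r had opposite signs in the genotypes. The log2 ratio was -1.11 in WT, a lower limit on its size, and 0.77 in LXR-DKO, each larger than the spread between probe sets. That spread came only from probe sets at or above the floor on both arrays. It does not cover the WT ratio, whose LPS reading of 9.1 was below the floor. With 1 array per group the difference was not tested. The probe set read 62.2 and 9.1 in WT and 78.7 and 133.8 in LXR-DKO, without and with LPS.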

How the results depend on the processing

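The number of members at least 2-fold different stayed within 1.5 times the reported count in all 4 comparisons under all 8 alternatives, with 1 exception. For LPS over control in WT, a floor at the 75th percentile, where Csf3r is not measured, left 1 instead of 2. Within that wide limit, LXR-DKO over WT fell from 3 to 2 without LPS with probe sets without a suffix. It also fell from 3 to 2 with LPS with the floor at the 75th percentile. Of 388 values of single members under the alternatives, 14 had the other sign, all for reported sizes of at most 0.21, and 15 moved by more than the spread between probe sets. For the difference of the log2 LPS responses these were Csf1r at -0.96 and Socs3 at 0.87 with the median over probe sets, Socs3 at 0.82 with probe sets without a suffix, and Csf3r at 3.54 with the floor at the 25th percentile. That of Il2ra was -0.99 as reported and ranged from -1.34 to -0.86. The log2 genotype ratio of Il2ra, 5.52 without and 4.54 with LPS, was 3.73 and 3.40 with the higher floor, and 3.92 with LPS by the median over probe sets. That of Socs3 without LPS was -0.43 with probe sets without a suffix. Socs1 has no probe set without a suffix. Scaling to the same 75th percentile moved the median of all genes for LXR-DKO over WT from 0.05 to -0.12 without LPS and from 0.15 to -0.11 with LPS. No paired analysis was possible because each group has 1 array, and for the same reason no replicate could be left out.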

Other observations

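Receptors outside the set that also signal through Janus kinases went both ways. Of 22 measured, 5 passed 2-fold upwards and 2 downwards in LXR-DKO without LPS, against 12.7% and 9.28% of all measured genes. With LPS 4 were higher and 8 lower, against 17.8% and 8.76%. Lifr, the leukaemia inhibitory factor receptor, had log2 ratios of 3.83 and 3.31 by its brightest probe set, with its other probe sets as low as 0.05 and 0.12, and Il10ra was at 2.69 and 2.92. Il7r, the interleukin 7 receptor alpha chain, read 6347.5 in untreated and 7577.9 in LPS-treated WT cells, against 767.0 and 2332.6 in LXR-DKO, with both of its probe sets lower in LXR-DKO.

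Interleukin 15 shares receptor chains with interleukin 2. Both its gene and that of its private alpha chain passed 2-fold upwards with LPS in LXR-DKO, as did 6.23% of measured genes. Their log2 ratios in WT were -0.53 and 0.55. Il15 read 110.1 and 76.0 in WT and 108.3 and 322.7 in LXR-DKO. Il15ra, in the RefSeq table the neighbour of Il2ra, read 57.3 and 84.0 in WT and 69.3 and 301.3 in LXR-DKO, with a log2 genotype ratio of 0.27 without LPS. The difference of the log2 LPS responses was 2.11 for Il15 and 1.57 for Il15ra, with no replicate check. This difference was at least 1 either way for 9.68% of genes.

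Receptor tyrosine kinases of blood cells other than Csf1r went both ways as well. Without LPS, 1 of 7 measured passed 2-fold upwards and 2 downwards in LXR-DKO, against 12.7% and 9.28% of all measured genes. With LPS 3 of 9 were higher and 1 lower, against 17.8% and 8.76%. Met, the hepatocyte growth factor receptor, was lower in LXR-DKO at -4.57 and -3.95. Axl, a receptor for apoptotic cells, was higher at 1.49 and 1.88, with 1 of its 2 probe sets measured. Kit, the stem cell factor receptor, read 92.3 and 63.6 in WT and 49.3 and 183.6 in LXR-DKO. Of the 10 mast cell, basophil and eosinophil markers, Kit among them, 5 passed 2-fold upwards in LXR-DKO without LPS and 8 with LPS. The shares over all measured genes were 12.7% and 17.8%.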
